A study of Homo sapiens with 12 samples.

Results

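Aminoacyl tRNA synthetases and the scaffold proteins of their complex were followed in 2 leukaemia cell lines exposed to obatoclax. The set held 38 genes chosen by name: 19 synthetases of the cytosol, 16 of the mitochondrion, whose symbols end in 2, and 3 scaffold proteins. A gene was read from its brightest probe set (by mean of all arrays) among those with a single gene symbol. By that rule 33 of the 38 genes were measured, among 19775 genes with such a probe set: 17 cytosolic synthetases, 15 mitochondrial ones and the scaffold AIMP1. QARS1, MARS1 and TARS2 were matched only by probe sets that carry several symbols and were not used, and no probe set was listed for AIMP2 and EEF1E1. All 33 measured genes passed the filter on dim genes, a log2 value over 4 on at least 2 arrays, which 10561 genes of the array passed.

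RS4:11 and SEM-K2 are established lines of B cell precursor acute lymphoblastic leukaemia that share a fusion of KMT2A (MLL) with AFF1 (AF4), which the vehicle controls carry too. Each line was kept for 6 h with vehicle, with obatoclax at the EC50 (the concentration of mid-range effect) of a 72 h assay, or with 3 times as much (3xEC50). Obatoclax is a small-molecule drug made to bind antiapoptotic BCL2 proteins. The sources used here give no concentrations and do not say whether both lines received equal ones. There were 2 biologic replicates in each of 6 groups, 12 arrays in all, and no count or depth stands behind a value; precision is limited by the number of arrays. Whether replicates were separate passages or days is not stated in the labels, and p-values measure only the spread between these samples, which may be technical. The EC50 and 3xEC50 comparisons of a line share its vehicle arrays, and their values are given side by side. Each array holds the RNA of a whole culture, so fewer cells with a transcript and less of it per cell cannot be told apart.

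A synthetase joins an amino acid to its tRNA, the step that fixes the meaning of the genetic code before the ribosome reads it. Cells keep separate enzymes for the cytosol and for the mitochondrial ribosome, both encoded in the nucleus; GARS1 and KARS1 are exceptions that give both forms from a single gene. In animals several cytosolic synthetases are bound in a large complex held together by the scaffolds AIMP1, AIMP2 and EEF1E1, while the others act free of it. When amino acids are short, uncharged tRNA activates the kinase GCN2, which phosphorylates the initiation factor eIF2 and raises translation of the transcription factor ATF4. ATF4 binds with C/EBP partners at response elements of amino acid transporters, amino acid synthesis enzymes and many cytosolic synthetases, so the transcripts of these synthetases are used as a readout of that pathway. WARS1 has a further inducer, interferon-gamma.

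The promoters of the family show how the groups differ in sequence. RefSeq's table for GRCh38.p14 held 33 of the 38 members, with the 250 bases before and the 50 after the first listed start; LARS1, VARS1, YARS1, AARS2 and VARS2 had no entry. The C/EBP-ATF response element was searched as TGATGNAA on both strands. It was present in 3.67% of all 27305 promoters of that length, in 6 of 10 textbook ATF4 targets among the cytosolic synthetases, in 0 of 6 other cytosolic synthetases and in 1 of 14 mitochondrial ones. With any listed start the counts were 7 of 10, 0 of 6 and 1 of 14, against 4.46% of all genes. A gene may be listed as an ATF4 target because such an element was found in it, so these counts are no test of the list. The measured textbook ATF4 targets read below vehicle on every treated RS4:11 array, with or without a match, and a link to the motif was not tested. In the matches shown here capitals mark the match, and each stretch is written along the gene's own strand.
AARS1 (chr16:70289675-70289704, minus strand): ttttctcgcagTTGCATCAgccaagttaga
CARS1 (chr11:3057407-3057436, minus strand): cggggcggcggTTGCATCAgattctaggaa
GARS1 (chr7:30594834-30594863, plus strand): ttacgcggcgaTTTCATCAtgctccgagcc
IARS1 (chr9:92293692-92293721, minus strand): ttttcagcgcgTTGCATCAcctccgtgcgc
MARS1 (chr12:57488053-57488082, plus strand): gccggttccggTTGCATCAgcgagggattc
NARS1 (chr18:57621804-57621833, minus strand): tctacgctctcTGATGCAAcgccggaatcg
TARS1 (chr5:33440956-33440985, plus strand): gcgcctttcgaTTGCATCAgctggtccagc
YARS2 (chr12:32756076-32756105, minus strand): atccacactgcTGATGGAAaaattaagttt

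AARS1, CARS1, IARS1, MARS1, NARS1 and TARS1 carried the same 8 letters, TTGCATCA or its reverse complement TGATGCAA, while GARS1 (at its second listed start) and YARS2 carried other forms. In AARS1 the match began 187 bases before the start; in IARS1 it began 13 bases before the start and ended short of it, in CARS1 and MARS1 it began 2 and 4 bases before and ran across it, and in TARS1 and NARS1 it lay 3 and 15 bases after it. EPRS1, SARS1 and WARS1, also textbook ATF4 targets, did not hold these letters in the window, which says nothing of binding elsewhere. WARS1 was the measured member furthest from vehicle in RS4:11. The whole upstream window of AARS1 (chr16:70289507-70289756, minus strand, 250 bases, match in capitals) is given to show the distance between the match and the start at the right end.
AARS1 upstream: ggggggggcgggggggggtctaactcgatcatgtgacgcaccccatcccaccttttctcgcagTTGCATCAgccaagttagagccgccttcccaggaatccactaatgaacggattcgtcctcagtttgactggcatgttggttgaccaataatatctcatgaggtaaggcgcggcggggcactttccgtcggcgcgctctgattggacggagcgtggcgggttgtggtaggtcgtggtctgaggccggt

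Mitochondrial promoters were searched for another motif, the core of the site of NRF1, a transcription factor of nuclear genes for mitochondrial proteins. Its letters GCATGCG, searched on both strands, were in 4.13% of all promoters, in 3 of 14 mitochondrial synthetases and in 0 of 16 cytosolic ones. NARS2 is the mitochondrial synthetase whose RNA differed most from vehicle in SEM-K2, and MARS2 that with the largest difference in RS4:11 at 3xEC50. In MARS2 the core matched on both strands, overlapping itself, and 1 of these matches is in capitals.
NARS2 (chr11:78574869-78574897, minus strand): ggtcacaagtaCGCATGCtctcccttctt
MARS2 (chr2:197705332-197705360, plus strand): cgacccggctgCGCATGCgcctctcacac
YARS2 (chr12:32755960-32755988, minus strand): aaccgtctcggGCATGCGcagaaaaacac
The E-box CACGTG was in 1 of 16 cytosolic and 3 of 14 mitochondrial promoters, against 7.43% of all. The ETS motif CCGGAAG was in 8 of 16 and 6 of 14, against 10.7% of all. A match describes letters and is no evidence of a bound site.

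Markers of the labelled cell type were present: 6 of 7 measured B cell precursor genes lay above the floor of 4 on all 12 arrays, and DNTT on 7. Of the measured markers of other cells, 4 of 5 myeloid, 4 of 5 T and NK cell, 2 of 3 erythroid and megakaryocyte, and 3 of 4 fibroblast and epithelial genes lay above it on no array, while CSF1R, NKG7, ITGA2B and COL1A1 lay above it on all. SEM-K2 3xEC50 replicate 2 stood apart: the gap from the 3′ to the 5′ control probe set (log2) was 1.97 for ACTB, against 0.87 to 1.23 on the other 11 arrays, and 0.61 for GAPDH, against 0.08 to 0.30. Its part in the results was not tested. The SEM-K2 3xEC50 medians of the cytosolic and of the mitochondrial synthetases, and some of the gene values it moved, are given with and without it. Arrays with the same replicate number deviated together, so results were also computed with the replicate number as a block.

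In RS4:11 every measured cytosolic synthetase had a lower mean with obatoclax than with vehicle, at both doses, and none of these differences passed the test. The median log2 difference over the 17 genes was -0.40 at EC50 and -0.48 at 3xEC50, where the median over all 10561 genes tested was 0.02 at both doses. Both treated arrays lay below both vehicle arrays for 12 of the 17 genes at EC50 and for 13 at 3xEC50, against 12.9% and 15.9% of all genes tested. No member was called at an adjusted p under 0.05 (limma with Benjamini-Hochberg adjustment), nor was any other gene in RS4:11 (0% called at each dose, with or without the replicate block). At an unadjusted p under 0.05, 8 of the 17 were lower at EC50 and 10 at 3xEC50, against 1.73% and 2.38% of all genes.

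**Figure D1:**
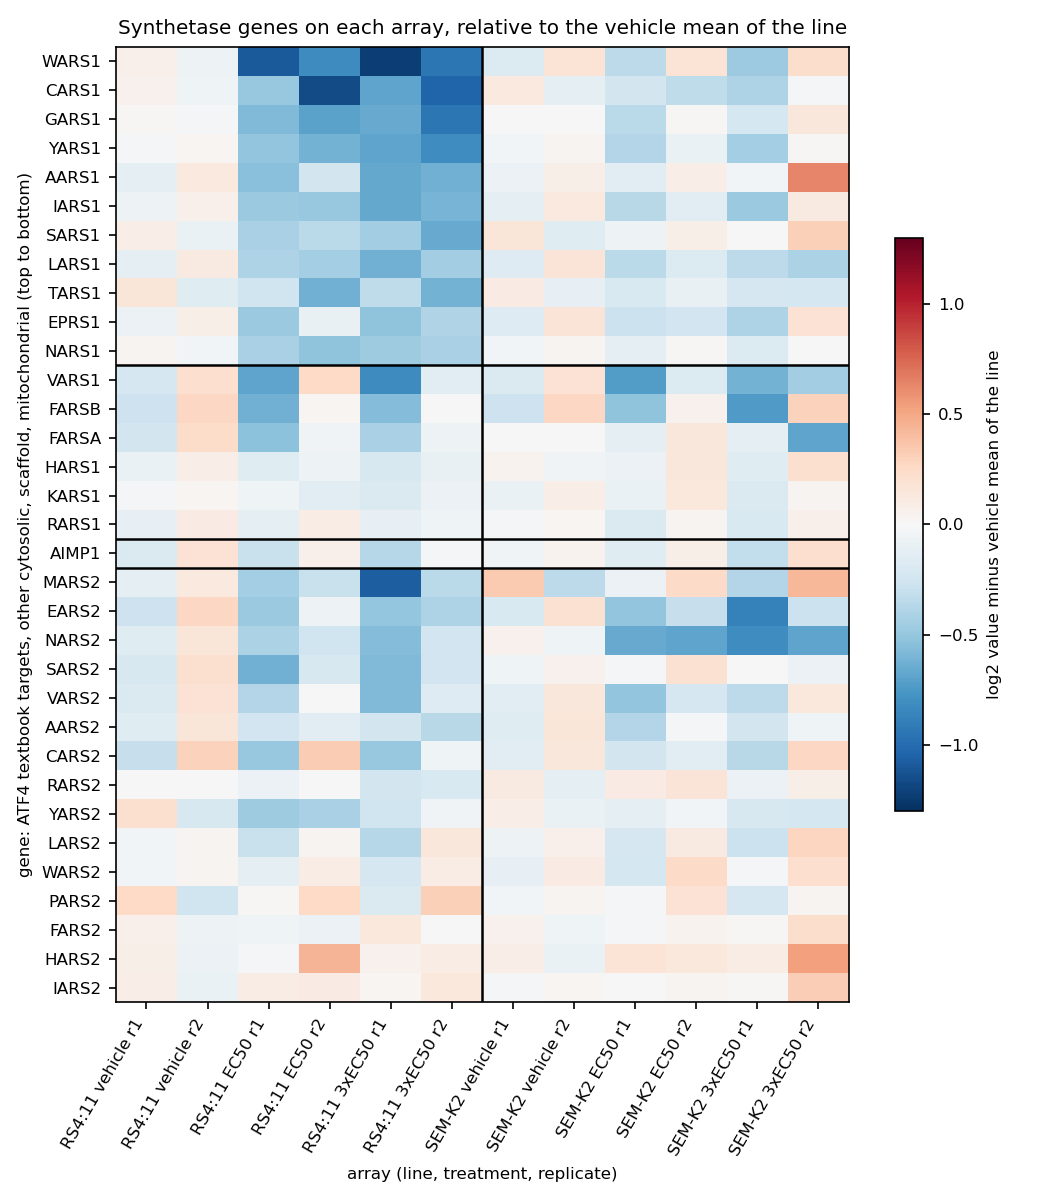
Log2 value of the 33 measured genes (rows) on the 12 arrays (columns), minus the mean of the 2 vehicle arrays of the same line. Blue marks values below the vehicle mean and red values above it; the blue block at the top of the RS4:11 columns holds the 11 textbook ATF4 targets, which lay below both vehicle arrays on all 4 treated arrays.

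WARS1, the cytosolic tryptophanyl enzyme, stood furthest from vehicle. Its log2 value in RS4:11 was 9.68 and 9.55 with vehicle (replicates 1 and 2), 8.52 and 8.80 at EC50, and 8.39 and 8.68 at 3xEC50. All 4 treated arrays lay below both vehicle arrays. The difference was -0.95 ± 0.27 (SE) at EC50 and -1.08 ± 0.27 at 3xEC50, a 2.12-fold lower level, with limma adjusted p of 0.927 and 0.517. With the replicate block the adjusted p at 3xEC50 was 0.118, and for both doses averaged (-1.02 ± 0.23) it was 0.286 without the block and 0.0693 with it. A block within each line called WARS1 in that averaged comparison and was the only setting tried that did. There 0% of all genes were called without a block, 0.161% with a block over all arrays and 0.246% with 1 block a line.

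CARS1, which charges cysteine tRNA, had values of 10.07 and 9.96 with vehicle, 9.52 and 8.85 at EC50, and 9.33 and 8.97 at 3xEC50. The treated replicates lay far apart, yet each was below both controls, and the difference at 3xEC50 was -0.86 ± 0.24 (limma adjusted p = 0.626). GARS1, the glycyl enzyme of both compartments, read 10.59 and 10.55 with vehicle, 10.00 and 9.87 at EC50, and 9.92 and 9.63 at 3xEC50. Its vehicle arrays differed by little, and its difference was -0.64 ± 0.19 at EC50 and -0.79 ± 0.19 at 3xEC50 (limma adjusted p = 0.968 and 0.499). For YARS1, the tyrosyl enzyme, the values were 11.29 and 11.35 with vehicle, 10.81 and 10.71 at EC50, and 10.63 and 10.51 at 3xEC50. The groups did not overlap, and the 3xEC50 difference was -0.75 ± 0.18 (limma adjusted p = 0.504).

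AARS1, the alanyl enzyme with the response element shown above, read 11.57 and 11.83 with vehicle, 11.16 and 11.46 at EC50, and 11.03 and 11.08 at 3xEC50. All 4 treated arrays lay below both controls, EC50 replicate 2 by the least, with differences of -0.40 ± 0.23 and -0.65 ± 0.23. SARS1, which charges serine tRNA, read 10.96 and 10.78, then 10.45 and 10.52, then 10.42 and 10.22. Both of its treated pairs lay below the controls (-0.55 ± 0.17 at 3xEC50). LARS1, the leucyl enzyme, read 11.55 and 11.78, then 11.26 and 11.22, then 11.04 and 11.21, again without overlap (-0.54 ± 0.16). At 3xEC50 IARS1, the isoleucyl enzyme, differed by -0.64 ± 0.20, TARS1, the threonyl enzyme, by -0.48 ± 0.19 (-0.77 with probe sets averaged), EPRS1, which charges glutamate and proline tRNAs, by -0.45 ± 0.22, and NARS1, the asparaginyl enzyme, by -0.44 ± 0.14. The other probe set of TARS1 in that average lay under the floor of 4 on every array.

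These genes are the textbook ATF4 targets of the family, 11 of which were measured. All 11 lay below both vehicle arrays at EC50 and at 3xEC50, against 12.9% and 15.9% of all genes, and their median difference was -0.48 and -0.64. The other 6 cytosolic genes, FARSA, FARSB, HARS1, KARS1, RARS1 and VARS1, had medians of -0.16 and -0.20, and 1 and 2 of the 6 lay below both vehicle arrays, the 1 being near the share of all genes. The difference between the groups of genes was not tested, because they were chosen with earlier results of these data known. Of these, VARS1 differed by -0.48 ± 0.35 at 3xEC50 (-0.15 without 3xEC50 replicate 1), FARSB by -0.27 ± 0.40 (-0.65 with probe sets averaged), FARSA by -0.24 ± 0.26 and HARS1, the histidyl enzyme, by -0.15 ± 0.16. KARS1, the lysyl enzyme, shows the small end: 13.20 and 13.25 with vehicle, 13.17 and 13.08 at EC50, and 13.04 and 13.15 at 3xEC50, a difference of -0.13 ± 0.15. RARS1, the arginyl enzyme, read 10.03 and 10.25 with vehicle, 10.01 and 10.24 at EC50, and 10.03 and 10.08 at 3xEC50. Its arrays overlapped at both doses (-0.08 ± 0.16 at 3xEC50), and without RS4:11 vehicle replicate 2 the sign turned, to 0.03.

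**Figure D2:**
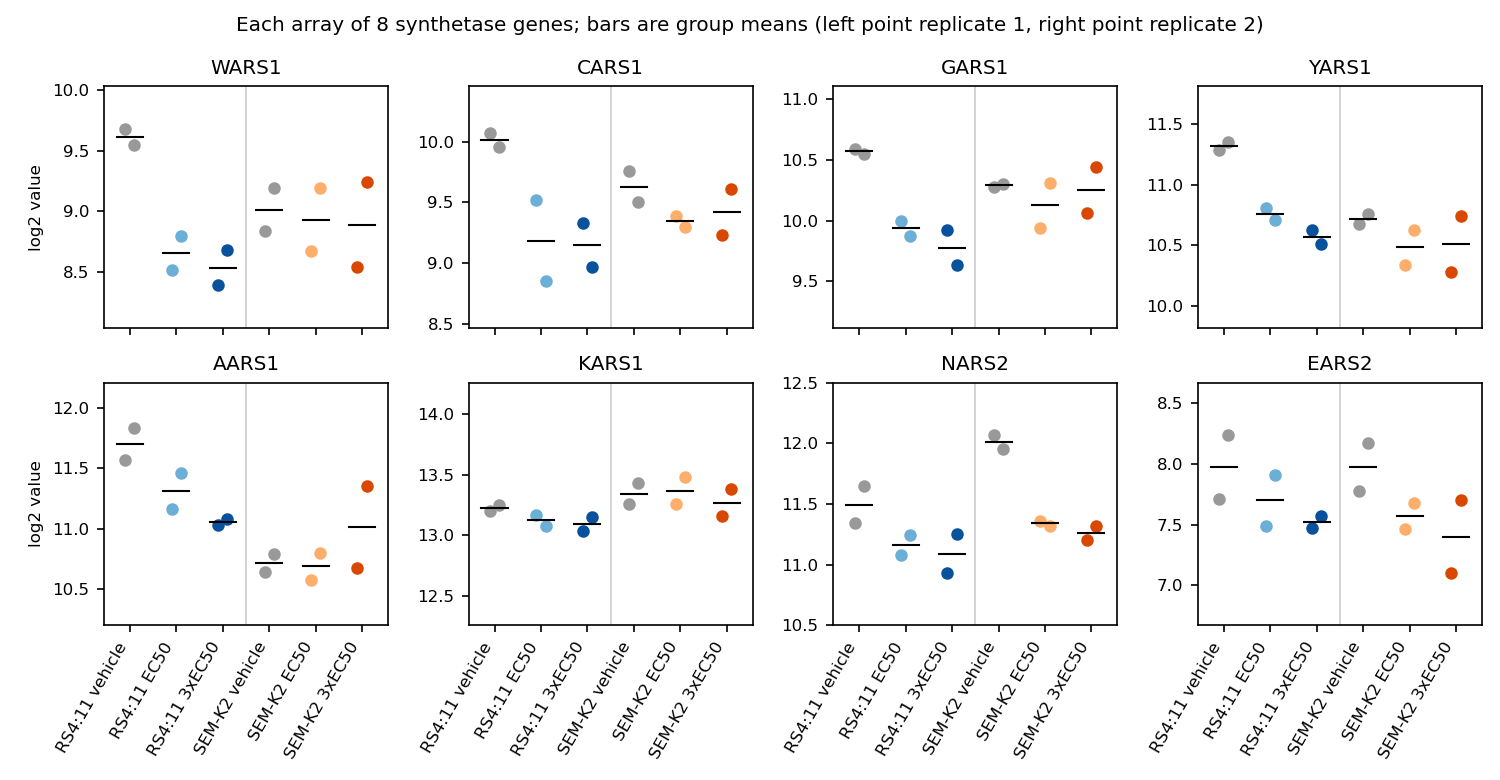
Log2 value on each array for 8 genes, with replicate 1 as the left point and replicate 2 as the right point of a group and a bar at the group mean; each panel has its own axis range of equal span. WARS1, CARS1, GARS1, YARS1 and AARS1 lie below both vehicle arrays on all treated RS4:11 arrays, AARS1 at EC50 by the least, KARS1 stays within 13.04 to 13.48 everywhere, and NARS2 and EARS2 lie below vehicle on all treated SEM-K2 arrays.

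Enzymes inside and outside the synthetase complex were also set side by side. The 5 measured enzymes of the complex, EPRS1, IARS1, KARS1, LARS1 and RARS1, had median differences of -0.29 and -0.45 in RS4:11 at EC50 and 3xEC50, and the 12 free-standing genes -0.42 and -0.52. Within the complex the values ran from -0.64 for IARS1 to -0.08 for RARS1 at 3xEC50. AIMP1, the scaffold that was measured, read 10.82 and 11.20 with vehicle, 10.72 and 11.08 at EC50, and 10.64 and 10.98 at 3xEC50 in RS4:11. In SEM-K2 it read 10.95 and 11.04, then 10.84 and 11.07, then 10.68 and 11.21. Its groups overlapped in every comparison, with differences between -0.20 and -0.04.

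The mitochondrial synthetases lay nearer to vehicle in RS4:11. Their median difference over 15 genes was -0.12 at EC50, with 12 below 0, and -0.21 at 3xEC50, with 11 below 0. Of all genes tested, 44.3% and 46.0% were below 0. At EC50 3 of the 15 had both treated arrays below both vehicle arrays and 6 did at 3xEC50, against 12.9% and 15.9% of all genes, so the EC50 count was not far from that share. At an unadjusted p under 0.05 there was 1 lower gene at each dose, YARS2 and NARS2, against 1.73% and 2.38% of all genes. These medians moved with single arrays: without EC50 replicate 1 the EC50 median was 0.01, without EC50 replicate 2 it was -0.28, and without 3xEC50 replicate 1 the 3xEC50 median was -0.06. MARS2, the mitochondrial methionyl enzyme, read 6.07 and 6.33 with vehicle, 5.76 and 5.91 at EC50, and 5.13 and 5.85 at 3xEC50. All treated values were below vehicle, but the 3xEC50 replicates had an SD of 0.51, and the difference of -0.71 ± 0.34 was -0.35 without 3xEC50 replicate 1. EARS2, the mitochondrial glutamyl enzyme, read 7.71 and 8.24, then 7.49 and 7.91, then 7.47 and 7.57, a 3xEC50 difference of -0.46 ± 0.26 that was -0.72 without vehicle replicate 1 and -0.19 without vehicle replicate 2. At the other end, FARS2 read 7.86 and 7.73, then 7.74 and 7.72, then 7.93 and 7.80, and IARS2 read 10.93 and 10.76, then 10.94 and 10.95, then 10.87 and 10.98. Both overlapped vehicle at 3xEC50 (0.07 ± 0.14 and 0.08 ± 0.15), and the sign of FARS2 turned to -0.07 when its probe sets were averaged. The other 10 mitochondrial members ran from -0.41 for SARS2, -0.37 for VARS2 and -0.29 for AARS2 through -0.28 for CARS2, -0.21 for RARS2, -0.15 for YARS2, -0.11 for LARS2 and -0.06 for WARS2 to 0.06 for PARS2 and 0.07 for HARS2 at 3xEC50, none with an SE under 0.14. Without vehicle replicate 2, SARS2 differed by -0.20 and VARS2 by -0.18. YARS2, which holds both motifs, differed by -0.45 ± 0.17 at EC50, with 9.34 and 8.93 on the vehicle arrays and 8.67 and 8.71 on the treated ones.

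In SEM-K2 the medians of both groups lay nearer to 0 than in RS4:11, and the 1 member that some settings called was mitochondrial. For the 17 cytosolic genes the median difference was -0.15 at EC50, with 13 below 0, and -0.12 at 3xEC50, with 14 below 0. All genes tested had medians of 0.05 and 0.06, with 38.1% and 41.4% below 0, so most cytosolic genes leaned low here too. Of the 17, 5 lay below both vehicle arrays at EC50 and 4 at 3xEC50, where 11.8% and 14% of all genes did. At an unadjusted p under 0.05, 0 were lower at EC50 and 1, LARS1, at 3xEC50, against 1.51% and 3.58% of all genes. These medians changed sign with 1 array: the EC50 median was 0.02 without EC50 replicate 1, and the 3xEC50 median was 0.06 without 3xEC50 replicate 1 and -0.23 without replicate 2. The 11 textbook ATF4 targets had medians of -0.17 and -0.12, against -0.48 and -0.64 in RS4:11. Their SEM-K2 medians also differed between replicates. Against the vehicle array of the same number (1, then 2), their EC50 medians were -0.46 and -0.56 in RS4:11 and -0.21 and -0.02 in SEM-K2. At 3xEC50 they were -0.54 and -0.68 in RS4:11 and -0.24 and 0.01 in SEM-K2. The other 6 cytosolic genes had medians of -0.03 and -0.15. The 15 mitochondrial genes had medians of 0.01 and -0.04, with 7 and 8 below 0; without 3xEC50 replicate 1 or 2 the latter was 0.13 or -0.21.

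NARS2, the mitochondrial asparaginyl enzyme, was the 1 member called at a dose against vehicle, and at 3xEC50 it passed only with a replicate block. In SEM-K2 it read 12.07 and 11.95 with vehicle, 11.36 and 11.32 at EC50, and 11.20 and 11.32 at 3xEC50. The replicates of each group lay close together, and all treated arrays lay well below both controls. The difference was -0.68 ± 0.17 at EC50 (limma adjusted p = 0.323) and -0.76 ± 0.17 at 3xEC50, a 1.69-fold lower level (adjusted p = 0.105). The replicate block called it at 3xEC50, with an adjusted p of 0.0392, where 2.08% of all genes were called with the block and 0.824% without it. For both doses averaged the difference was -0.72 ± 0.15, with an adjusted p of 0.0766 without the block and 0.0261 with it, where 0.748% and 2.09% of all genes were called. Without a block, quantile normalization again and trend with robust eBayes also called it there (adjusted p = 0.0475 and 0.04), with 0.795% and 0.767% of all genes called. At EC50 0.17% of all genes were called and no member. In RS4:11 NARS2 read 11.34 and 11.65 with vehicle, 11.08 and 11.24 at EC50, and 10.93 and 11.25 at 3xEC50, also below both controls (-0.41 ± 0.17 at 3xEC50, adjusted p = 0.958, and -0.25 without vehicle replicate 2). The difference between the lines in its response was -0.35 ± 0.24 at 3xEC50 and was not called.

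Genes at the lower end of the SEM-K2 range did not pass the test with or without the block. EARS2 read 7.78 and 8.17 with vehicle, 7.46 and 7.68 at EC50, and 7.10 and 7.70 at 3xEC50, a difference of -0.58 ± 0.26 with all treated values below the controls. It was -0.27 without 3xEC50 replicate 1 and -0.88 without 3xEC50 replicate 2. VARS1, the valyl enzyme, read 9.62 and 9.99, then 9.08 and 9.63, then 9.19 and 9.35 (-0.54 ± 0.35, and -1.25 with probe sets averaged). LARS1 read 11.38 and 11.71, then 11.19 and 11.37, then 11.20 and 11.13 (-0.38 ± 0.16, and -0.21 without vehicle replicate 2 or -0.65 with probe sets averaged). In each of the 3 genes both 3xEC50 arrays lay below both controls. FARSA, the catalytic subunit of the phenylalanyl enzyme, read 9.15 and 9.16, then 9.04 and 9.30, then 9.03 and 8.47; its difference was -0.41 ± 0.26, and -0.13 without 3xEC50 replicate 2. FARSB, the partner subunit, read 10.74 and 11.28, then 10.49 and 11.07, then 10.27 and 11.31, so the replicate numbers differed more than the treatments (-0.22 ± 0.40). Its difference was 0.30 without 3xEC50 replicate 1 and -0.73 without replicate 2, and with probe sets averaged it was -1.24; its 2 dimmer probe sets differed by -1.70 and -1.81.

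Higher values in SEM-K2 at 3xEC50 were seen for AARS1, HARS2, IARS2 and SARS1. AARS1 read 10.64 and 10.79 with vehicle, 10.58 and 10.80 at EC50, and 10.68 and 11.35 at 3xEC50. A single array stood high, replicate 2 of 3xEC50; the difference was 0.30 ± 0.23 with it and -0.03 without it. HARS2, the mitochondrial histidyl enzyme, read 8.25 and 8.07, then 8.34 and 8.30, then 8.26 and 8.69 (0.31 ± 0.20 at 3xEC50, 0.09 without replicate 2). IARS2 read 11.21 and 11.26, then 11.23 and 11.27, then 11.25 and 11.55 (0.17 ± 0.15, 0.02 without replicate 2). SARS1 read 10.57 and 10.26, then 10.35 and 10.49, then 10.41 and 10.72 (0.15 ± 0.17, 0.00 without replicate 2). The remaining SEM-K2 members lay between -0.22 for YARS2 and 0.12 for FARS2 at 3xEC50. Among them, without replicate 2 WARS1 differed by -0.47, IARS1 by -0.47, YARS1 by -0.45 and EPRS1 by -0.41, and MARS2 by -0.38 in place of 0.03; with probe sets averaged EPRS1 differed by -0.72. In AARS1, HARS2, IARS2 and SARS1 the higher 3xEC50 value was on replicate 2, the array with the large 3′ to 5′ difference, and its part in them was not tested.

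Cytosolic and mitochondrial genes were then set side by side on each array, as the mean log2 value of each group minus its mean in the vehicle of the line. In RS4:11 at EC50 the cytosolic mean was -0.46 and -0.35 on replicates 1 and 2 and the mitochondrial mean -0.27 and -0.01. At 3xEC50 the cytosolic mean was -0.55 and -0.47 and the mitochondrial mean -0.34 and -0.09. The cytosolic mean was thus the lower on all 4 treated arrays, by 0.19 to 0.38 (-0.19, -0.34, -0.21 and -0.38), whereas the vehicle arrays lay within 0.06 of their mean for both groups. In SEM-K2 at EC50 the cytosolic mean was -0.27 and -0.02 and the mitochondrial mean -0.18 and 0. At 3xEC50 the cytosolic mean was -0.31 and 0.03 and the mitochondrial mean -0.25 and 0.08. Here the gap between the groups was -0.09, -0.02, -0.06 and -0.05, close to the 0.04 by which the vehicle arrays differed from 0.

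Comparing treated and vehicle arrays of the same replicate number gave the cytosolic genes a median of -0.42 and -0.38 in RS4:11 at EC50 and of -0.51 and -0.47 at 3xEC50. Both numbers gave like values there. In SEM-K2 the same medians were -0.18 and 0.00 at EC50 and -0.22 and 0.01 at 3xEC50, so the difference was on replicate 1. For the mitochondrial genes the medians were -0.20 and -0.01, then -0.24 and -0.18, in RS4:11, and -0.12 and 0.05, then -0.20 and 0.11, in SEM-K2.

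**Figure D3:**
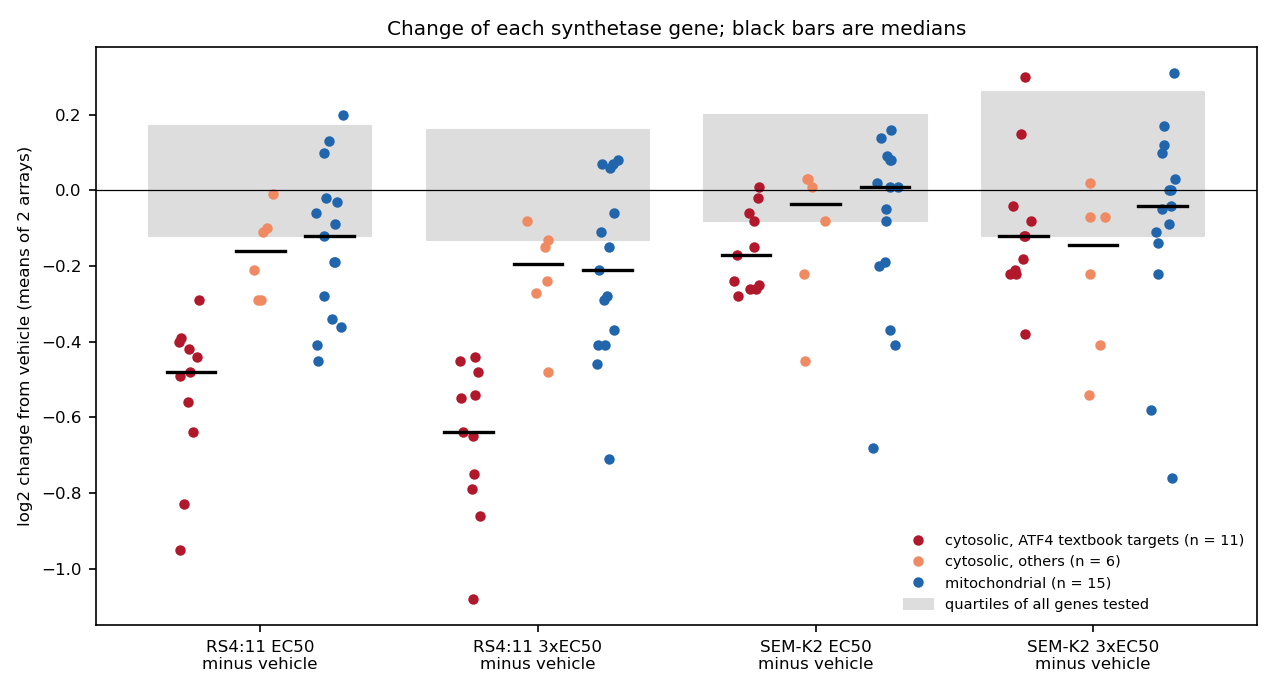
Log2 difference from vehicle of each measured synthetase (points) in the 4 comparisons, by group of genes, with a bar at the median of the group and a grey band between the quartiles of all 10561 genes tested. In RS4:11 the 11 textbook ATF4 targets lie below the band at both doses, with medians of -0.48 and -0.64; in SEM-K2 the medians of the 3 groups lie between -0.17 and 0.01.

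Between 3xEC50 and EC50 no member was called in RS4:11 or in SEM-K2, and 0% of all genes were called in each. At an unadjusted p under 0.05 there were 0 of 33 members in either line, against 0.805% and 2.22% of all genes. The largest steps were -0.35 ± 0.34 for MARS2 and 0.30 ± 0.17 for YARS2 in RS4:11, and -0.42 ± 0.26 for FARSA and 0.33 ± 0.23 for AARS1 in SEM-K2. WARS1, CARS1 and GARS1 differed by -0.13, -0.03 and -0.15 between the doses in RS4:11, less than their SEs of 0.27, 0.24 and 0.19.

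The difference between the lines in response was tested for each gene as SEM-K2 minus RS4:11. No member passed, and few genes did in all: 0.00947% at EC50 and 0.0379% at 3xEC50. At an unadjusted p under 0.05 there was 1 of 33 members at EC50, WARS1, and 4 at 3xEC50, against 1.75% and 3.69% of all genes. The 4 were WARS1 (0.96 ± 0.38), AARS1 (0.95 ± 0.32), GARS1 (0.75 ± 0.27) and SARS1 (0.71 ± 0.24), each a textbook ATF4 target. Their adjusted p was 1.0, and 0.326 at the least with the replicate block. In all 4 genes 3xEC50 replicate 2, the array that stood apart, was the highest SEM-K2 array. Without it the differences were 0.61 for WARS1, 0.61 for AARS1, 0.56 for GARS1 and 0.55 for SARS1, and the unadjusted p was 0.0508 at the least.

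The vehicle-treated lines already differed in some members. Compared with RS4:11, SEM-K2 had less CARS2, AARS1 and YARS1, the 3 of 33 members called, where 19.6% of all genes were called. CARS2, the mitochondrial cysteinyl enzyme, read 9.27 and 9.86 in RS4:11 and 7.87 and 8.16 in SEM-K2, a 2.94-fold lower level (-1.56 ± 0.33, limma adjusted p = 0.0082). CARS2 stayed at 7.65 to 8.28 on every SEM-K2 array and at 9.07 to 9.89 on every RS4:11 array, so the lines did not overlap. Its 4 other probe sets lay under the floor of 4, and averaged with them the difference was -0.47. AARS1 was 1.98-fold lower (-0.99 ± 0.23, adjusted p = 0.0131) and YARS1 1.51-fold lower (-0.60 ± 0.18, adjusted p = 0.0452). The replicate block called 7 members where 26.8% of all genes were called, adding VARS2 (-0.63 ± 0.25 without the block, adjusted p with it 0.00407), WARS1 (-0.60 ± 0.27, 0.0417), NARS2 (0.52 ± 0.17, 0.0294) and RARS1 (0.42 ± 0.16, 0.0338). IARS2 and IARS1 were next among those higher in SEM-K2 (0.39 ± 0.15 and 0.34 ± 0.20) and did not pass. Without RS4:11 vehicle replicate 2, or without SEM-K2 vehicle replicate 1, no member was called; CARS2 then differed by -1.26 (adjusted p = 0.0689) or -1.41 (0.0558).

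**Figure D4:**
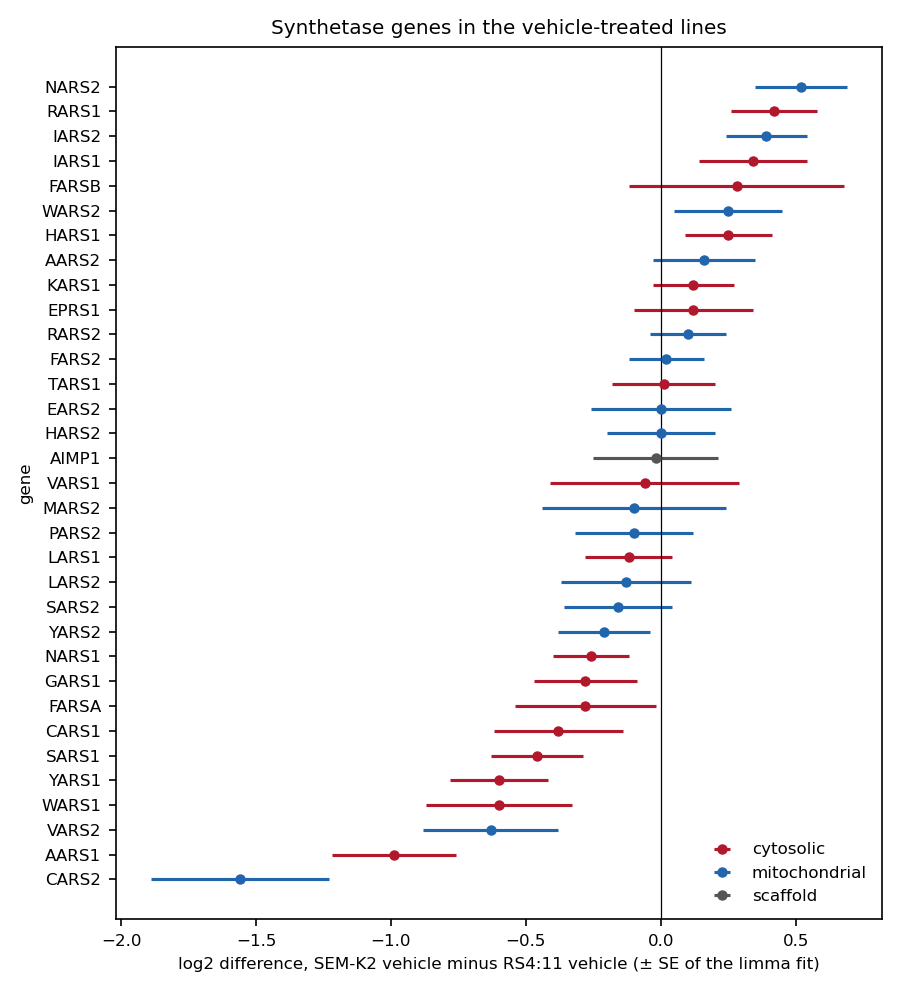
Log2 difference between the vehicle-treated lines, SEM-K2 minus RS4:11, for each of the 33 measured genes, with bars of 1 SE of the limma fit. CARS2 and AARS1 lie furthest to the left, at -1.56 and -0.99, and NARS2 and RARS1 furthest to the right, at 0.52 and 0.42.

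WARS1, CARS1, GARS1 and YARS1, the cytosolic genes furthest from vehicle in RS4:11, had higher vehicle means there than in SEM-K2. Of these only YARS1 was called between the vehicles by the main fit. The genes were picked with the same RS4:11 vehicle arrays. A high reading on those arrays would add to the fall, to the gap between the vehicles and to any narrowing of it with obatoclax. WARS1 read 8.84 and 9.19 in SEM-K2 vehicle, 8.67 and 9.19 at EC50 and 8.54 and 9.24 at 3xEC50, and the RS4:11 arrays lay above this range with vehicle and overlapped its lower end with obatoclax. YARS1 read 10.68 and 10.76, then 10.34 and 10.63, then 10.28 and 10.74 in SEM-K2, and treated RS4:11 arrays, at 10.51 to 10.81, overlapped that range. GARS1 in SEM-K2 read 10.28 and 10.30, then 9.94 and 10.31, then 10.06 and 10.44, and CARS1 9.76 and 9.50, then 9.39 and 9.30, then 9.23 and 9.61. With obatoclax the mean of YARS1 was nearer between the lines, and those of WARS1, CARS1 and GARS1 were higher in SEM-K2.

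Among the other genes of the pathway, the ATF4 targets outside the family had the same direction in RS4:11. Of 22 measured genes in the list of ATF4 and its targets, 19 were below 0 at each dose, against 44.3% and 46.0% of all genes, with medians of -0.41 and -0.42. None was called at either dose in RS4:11, with or without the replicate block. For both doses averaged the block called SLC7A11 (-2.09 ± 0.45, limma adjusted p = 0.277 without it and 0.041 with it) and SLC7A5, an amino acid transporter (-0.95 ± 0.20, 0.264 and 0.0462), where it called 0.161% of all genes. Of the 22, 9 were lower at EC50 and 10 at 3xEC50 at an unadjusted p under 0.05, against 1.73% and 2.38% of all genes. The largest differences were in SLC7A11, SESN2 and PSAT1. SLC7A11, a cystine transporter, differed by -2.12 ± 0.52 and -2.05 ± 0.52. SESN2, a stress-induced inhibitor of mTORC1, differed by -1.20 ± 0.43 and -1.40 ± 0.43, the latter -0.81 without vehicle replicate 1. PSAT1, an enzyme of serine synthesis, differed by -1.01 ± 0.24 and -1.07 ± 0.24. On treated RS4:11 arrays SLC7A11 read 4.35 to 5.91 and SESN2 4.18 to 5.09, in part near the floor of 4. STC2, also in the list, read 2.34 to 2.46 on the RS4:11 arrays, under that floor. ATF4 mRNA itself read 13.06 and 12.80 with vehicle, 12.76 and 12.25 at EC50, and 12.80 and 12.34 at 3xEC50 in RS4:11 (-0.42 ± 0.24 and -0.36 ± 0.24). Both EC50 arrays lay below both vehicle arrays, replicate 1 by little, and at 3xEC50 replicate 1 read the same as vehicle replicate 2. In SEM-K2 the list had medians of 0.04 and 0.05, with 9 and 10 genes below 0. There SLC7A11 differed by -0.54 ± 0.52 and PSAT1 by -0.49 ± 0.24 at 3xEC50, and DDIT3, which encodes CHOP, by 1.15 ± 0.22 (adjusted p = 0.0588, with the block 0.0206). VLDLR (0.65 ± 0.22) was the other gene of this list that the block called there, where it called 2.08% of all genes.

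PPP1R15A, the stress-induced subunit that directs a phosphatase to eIF2, was the 1 gene of the 9 GCN2 and eIF2 genes that passed in a dose comparison, at 3xEC50 in SEM-K2, where 0.824% of all genes were called. It rose in SEM-K2 from 6.87 and 6.08 with vehicle to 7.95 and 8.01 at 3xEC50 (1.51 ± 0.25, limma adjusted p = 0.0312), and in RS4:11 it read 6.43 and 5.99 with vehicle and 6.64 and 6.47 at 3xEC50 (0.34 ± 0.25, not called). The call did not hold without vehicle replicate 2 (1.11, adjusted p = 0.148), 3xEC50 replicate 1 (1.54, 0.0592) or 3xEC50 replicate 2 (1.48, 0.21) of SEM-K2. The list had medians of -0.04, -0.07, -0.02 and 0.02 in RS4:11 at EC50 and 3xEC50 and in SEM-K2 at EC50 and 3xEC50. In that order the 16 measured genes of tRNA handling had medians of -0.07, -0.13, 0.05 and -0.07, the 8 mitochondrial translation factors -0.10, -0.09, -0.03 and -0.02, and the 4 cytosolic elongation factors 0.07, 0.04, 0.04 and 0.04. None of their genes was called in these comparisons. At an unadjusted p under 0.05 there were at most 1 in a list and comparison, against 4.2%, 4.9%, 5.47% and 11.7% of all genes in either direction. MTFMT, which formylates mitochondrial initiator tRNA, differed by -0.70 ± 0.21 in SEM-K2 at 3xEC50 (-0.36 without replicate 2), and XPOT, the nuclear export receptor of tRNA, by -0.38 ± 0.17 in RS4:11 at EC50. In RS4:11 MTFMT read 7.48 and 7.43 with vehicle, 6.92 and 7.04 at EC50, and 7.08 and 7.23 at 3xEC50, below both vehicle arrays at each dose. EIF5A, the factor that helps stalled ribosomes, differed by -1.17 ± 0.46 in SEM-K2 at 3xEC50, where replicate 2 read 11.19 and replicate 1 read 13.03; without replicate 2 it was -0.25.

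Since WARS1 is also an interferon-gamma gene, that list was read too. Its 6 measured genes had medians of 0.27 and 0.15 in RS4:11. At either dose 0 were below 0, against 44.3% and 46.0% of all genes. GBP2, 1 of the 6, read 3.07 to 3.94 in RS4:11, under the floor of 4 on every array of that line. None of the 6 was called, and 1 gene, GBP1, had an unadjusted p under 0.05, at 3xEC50. GBP1, an interferon-induced GTPase, differed by 0.95 ± 0.36 at 3xEC50 (0.35 without vehicle replicate 2). IRF1, a transcription factor of the pathway, differed by 0.15 ± 0.23 there. WARS1 differed by -1.08 ± 0.27 in the same comparison, and whether the pathway bears on it was not tested. In SEM-K2 the medians were 0.11 and 0.15.

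Genes with several probe sets gave a check on the choice of the brightest. Those over the log2 floor of 4 on at least 2 arrays were read, 15 of 17 dimmer probe sets of cytosolic members and 7 of 18 of mitochondrial ones. In RS4:11 at 3xEC50 all 15 of the former were below 0, with a median of -0.50, and at EC50 14 were, with a median of -0.64. The second probe set of WARS1 differed by -0.99 and -1.13. In SEM-K2 14 of the 15 were below 0 at each dose, with medians of -0.23 and -0.53, further from 0 than the -0.15 and -0.12 of the brightest. On replicate 2 of SEM-K2 3xEC50, 8 of the 15 dimmer cytosolic probe sets had their lowest value of all 12 arrays, against 1 of the 17 brightest. The dimmer probe set of VARS1 read 6.96 on 3xEC50 replicate 1 and 4.16 on replicate 2, and 1 of FARSB read 5.33 and 3.24. Of the 7 dimmer mitochondrial probe sets read, none had its lowest value on that array, and 5, 5, 3 and 4 were below 0 in RS4:11 at EC50 and 3xEC50 and in SEM-K2 at EC50 and 3xEC50.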

How the data were processed

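RNA of 12 cultures was measured on Affymetrix U133 Plus 2 arrays. Per the submitters' processing notes, the authors used GCRMA, with no version or scale given. They were read as log2 because the deposited values ran from 0.64 to 16.22 with array medians of 3.13 to 3.16. GCRMA corrects background by probe sequence and equalises arrays by quantiles, so a shift of all genes would not show. Of 54675 probe sets, 41091 had 1 gene symbol, 1801 had several and 62 were controls. Per gene the brightest probe set was used, and genes over 4 on at least 2 arrays were tested (10561).

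A model of 6 group means was fitted in R 4.3.3 with limma 3.58.1 (lmFit, then eBayes; 6 residual and 3.27 prior degrees of freedom), with Benjamini-Hochberg adjustment over all genes within a comparison and calls at an adjusted p under 0.05. The symbol ± marks the SE of a log2 difference. Same-numbered arrays deviated together (correlations of deviations 0.35 to 0.60 within a line for 6 of 6 pairs of groups and 0.19 to 0.40 across lines for 9 of 9), so the numbers were taken to pair samples. The pairing comes from the data and the titles' numbers. The fit without the block is the main one. Alternatives were the block over all arrays or within each line, other filters, mean of probe sets, no _x_at probe sets, median centring, quantile normalization again, trend and robust eBayes, fewer arrays in the fit and each array left out.

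Members and lists were chosen with earlier results of these data known, so lists have counts and medians and no test. Named with every array's value were members called by either fit, the 4 cytosolic and 2 mitochondrial with the largest fall and 2 of each with the largest rise in each 3xEC50 comparison, and the scaffold; the 4 with the largest difference each way between vehicles and up to 3 genes per pathway list were named. Genes described beyond this rule were chosen after their values were seen. Promoters are RefSeq's, GRCh38.p14. The fit was tested on simulated data.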

Additional observations from a re-analysis of the deposited data

How the results depend on the processing

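Of the recomputed counts and medians, 391 stayed within 1.5 times the count or 1 SD and 27 moved. Many of these could not move, so the tally is no measure of robustness. A block leaves log2 differences as they are, and an array outside a comparison does not enter its median. Counts of 0 that stayed 0 were scored as unmoved. The SD rested on 2 replicate differences and was wide where these lay apart. Of the recomputed values of named genes, 609 kept direction and side of the threshold, 17 passed it, 4 no longer did and 8 turned sign. With the replicate block the count of called members went from 0 to 1 in SEM-K2 at 3xEC50 and for both SEM-K2 doses averaged, and from 3 to 7 between vehicles; it changed no other count. The block within each line gave 1, 1 and 7 for the same comparisons and 1 for both RS4:11 doses averaged. Quantile normalization again, and trend with robust eBayes, each gave 1 for both SEM-K2 doses averaged. Averaging probe sets moved the RS4:11 cytosolic median to -0.48 at EC50 and -0.58 at 3xEC50 and the mitochondrial one to -0.12 at 3xEC50; median centring gave -0.43 for cytosolic genes at EC50. Leaving out 1 array gave 0 to 3 calls between vehicles. It gave cytosolic medians of -0.52 to -0.31 and -0.56 to -0.45 in RS4:11 and -0.24 to 0.02 and -0.23 to 0.06 in SEM-K2 (EC50, then 3xEC50), and mitochondrial ones of -0.28 to 0.01, -0.25 to -0.06, -0.12 to 0.04 and -0.21 to 0.13. Signs turned at 3xEC50 for some uncalled genes when 1 array was left out: in RS4:11 RARS1 ran from -0.19 to 0.03 and IARS2 from 0.00 to 0.17 (without vehicle replicates 1 and 2), and in SEM-K2 FARSB ran from -0.73 to 0.30 (0.06 without vehicle replicate 2), SARS1 from 0.00 to 0.31 and AARS1 from -0.03 to 0.64. FARS2 in RS4:11 was -0.07 with probe sets averaged. The cause was not tested. The number of arrays, 2 a group, limits the precision.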
